A study of Homo sapiens with 9 samples.

Results

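The arrays numbered 3 of a knockdown study were set against those numbered 1 and 2, within groups of arrays that had like profiles. They are 3 of 9 arrays: KD1-3 and KD2-3 from cells with shRNA 1 and shRNA 2 against RABL6A, and EV-3 from cells with the empty vector, against the 6 arrays KD1-1, KD2-1, KD1-2, KD2-2, EV-1 and EV-2. All cells were BON-1, an established human line from a pancreatic neuroendocrine tumour, and all had received a pLKO.1 lentiviral vector, with a hairpin in the knockdown cells and none in the controls. Each array, an Illumina HumanHT-12 v4 BeadChip, holds the total RNA of 1 sample. The labels speak of 3 sets of cells and number the arrays 1 to 3, and the number was taken as the set. The labels give no day, passage or selection time for a set, so what the sets differ in cannot be told apart from the number. The study asked how RABL6A, a RAB-like GTPase encoded by RABL6, bears on passage from G1 into S phase and on proliferation of these tumour cells through the retinoblastoma protein RB1.

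RB1 and its relatives hold E2F target genes down in G1, and phosphorylation by cyclin-dependent kinases releases E2F, which then turns on the genes of DNA replication. Genes of G2 and mitosis are turned on later by B-MYB, FOXM1 and the MuvB complex, and many carry a short promoter element called CHR. Interferon-stimulated genes are a separate program: interferon receptors act through JAK kinases on a transcription factor complex that includes IRF9 and binds an interferon response element. They encode antiviral proteins, and many are made at a low level without infection.

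Arrays were compared within 3 strata, chosen from correlations between whole profiles and not from the labels alone. Stratum 1 held KD1-3, KD1-1 and KD2-2, stratum 2 held KD2-3, KD2-1 and KD1-2, and the third stratum held EV-3, EV-1 and EV-2. The knockdown arrays numbered 2 thus stand with the other hairpin's label: KD1-1 and KD2-2 had a Pearson correlation of 0.995 across genes, and KD2-1 and KD1-2 one of 0.994. KD1-3 correlated with KD1-1 and KD2-2 at 0.988 and 0.989, and KD2-3 with KD1-2 and KD2-1 at 0.989 and 0.988. In the vector stratum all 3 pairs of arrays correlated at 0.995. Arrays 1 and 2 of a knockdown stratum were therefore put together because they were alike, which makes the spread between them small. This makes p-values in knockdown cells too small by an unknown amount. The model held a single spread per gene for all arrays. Standard errors (SE) and p-values in vector cells, and for the difference between both effects, thus rest on the same small spread and share this limit. The estimate of the set effect itself is the same whether these strata or the labelled hairpins are used.

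Signal level did not set the arrays numbered 3 apart as a group, though KD1-3 had the lowest raw median. Raw median signals were 119, 124 and 125 on KD1-3, KD2-3 and EV-3, within 119 to 129 over all 9, and 41.4% to 44.9% of probes were detected. All values below are log2 intensity after background correction and quantile normalization, and the test covered 12498 named genes. Precision is limited by how few arrays there are. Of 16 markers of neuroendocrine cells 14 were measured, and 13 of these were detected on all 9 arrays, with UCHL1 on 6. Few markers of other cell types passed the filter: 3 of 12 for leukocytes (CD14, CD68 and LYZ), 2 of 10 for fibroblasts and 3 of 8 for endothelium. Set against vector arrays 1 and 2, the mean of the leukocyte markers was 0.17 on KD1-3, against -0.15 on KD1-1 and -0.19 on KD2-2. It was 0.72 on KD2-3, against 0.83 on KD2-1 and 0.60 on KD1-2, and 0.19 on EV-3, against 0.07 on EV-1 and -0.07 on EV-2. Array 3 was the highest in stratum 1 and in vector cells, and LYZ, lysozyme, was highest on array 3 in all 3 strata (0.39 in knockdown cells and 0.54 in vector cells, not called). The set effect had a median of -0.14 in both knockdown and vector cells for fibroblast markers, and of 0.03 and 0.05 for endothelial markers. The part of other cells in the set effects was not tested.

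RABL6, the targeted gene, was lower on all knockdown arrays than on any vector array, those numbered 3 included. It read 5.22 on KD1-3, against 6.01 on KD1-1 and 5.69 on KD2-2. It read 5.69 on KD2-3, against 5.67 on KD2-1 and 5.99 on KD1-2, and 7.82 on EV-3, against 7.57 on EV-1 and 7.73 on EV-2. KD1-3 was the lowest of the 9, and KD2-3 lay between the other arrays of its stratum. The set effect, array 3 minus the mean of arrays 1 and 2, was -0.39 in knockdown cells (SE 0.16, limma adjusted p = 0.197) and 0.17 in vector cells (SE 0.22), neither of which passed the test.

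Over all genes, the knockdown arrays numbered 3 stood closer to vector. Between each knockdown array and the vector array of the same number, 1292 genes differed by over 1 log2 unit for KD1-3, against 2017 for KD1-1 and 1998 for KD2-2. In the other stratum 789 genes did so for KD2-3, against 1625 for KD2-1 and 1554 for KD1-2. The array numbered 3 had the fewest in both strata. The SD over genes of the knockdown response was 0.634 in set 3 and 0.771 in the mean of sets 1 and 2 in stratum 1, a ratio of 0.822. In stratum 2 it was 0.532 in set 3 and 0.672 in sets 1 and 2, a ratio of 0.792. The responses of set 3 and of sets 1 and 2, which share no array, correlated across genes at 0.89 in stratum 1 and 0.86 in stratum 2.

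**Figure D1:**
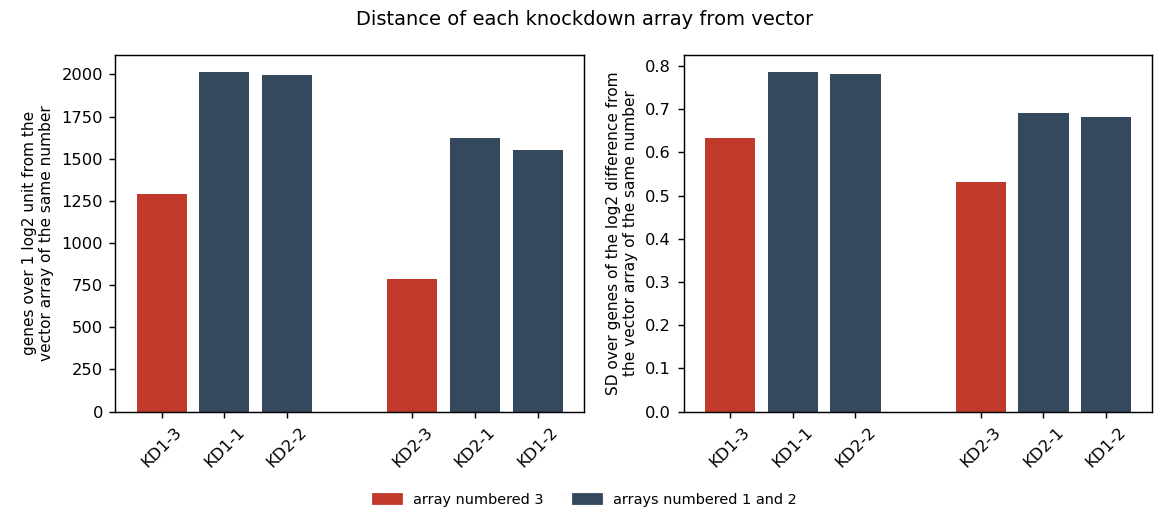
Genes over 1 log2 unit away from the vector array of the same number (left) and the SD over genes of that log2 difference (right), for each knockdown array; bars are single arrays, with the array numbered 3 in red and those numbered 1 and 2 in dark blue, stratum 1 on the left of each panel and stratum 2 on its right. KD1-3, at 1292 genes, and KD2-3, at 789, are the lowest bars of their strata.

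The arrays numbered 3 also stood apart from arrays 1 and 2 within the knockdown strata, more than in vector cells. The SD of gene differences was 0.346 and 0.336 for KD1-3 against KD1-1 and KD2-2, and 0.216 between KD1-1 and KD2-2. It was 0.335 and 0.350 for KD2-3 against KD1-2 and KD2-1, and 0.240 between KD1-2 and KD2-1. In vector cells the 3 pairs were alike, at 0.230 and 0.224 for EV-3 against EV-1 and EV-2 and 0.223 between EV-1 and EV-2. In the knockdown strata the low value is that of the pair joined for its likeness. The vector stratum was set by its label.

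In knockdown cells 515 genes were called for the set effect (4.12% of those tested; limma, Benjamini-Hochberg adjusted p under 0.05), 347 of them higher in set 3 (2.78%) and 168 lower (1.34%). An unadjusted p under 0.05 was reached by 2780 genes. No gene was called for the set effect in vector cells (0%), where 513 genes had an unadjusted p under 0.05, and EV-3 as 1 array was assumed to vary like the others. No gene was called for the difference between both effects either (0%), with 1052 genes at an unadjusted p under 0.05 and a smallest adjusted p of 0.369. The knockdown calls rest on the strata: with the labelled hairpins as strata 0 genes were called and 510 had an unadjusted p under 0.05, and without both knockdown arrays numbered 2 these counts were 0 and 1992. Leaving out 1 array at a time gave 118 to 515 calls. The words called, higher and lower below refer to the profile strata, with this limit. At the threshold, F10 at -0.46 and STMN1 at 0.67 were just inside (adjusted p = 0.0497 for both) and WDHD1 at 0.56 and ZNF16 at -0.54 just outside (adjusted p = 0.0502 for both).

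Genes of G2 and mitosis made up the largest block that was higher in set 3 of the knockdown cells. Of 79 tested members 62 were called higher and 0 lower, against 2.78% and 1.34% of all tested genes. The median effect was 0.95, against -0.02 over all tested genes. The median was 1.28 in stratum 1, 0.62 in stratum 2 and 0.02 in vector cells. On 75 of the 79 genes array 3 lay above both others in each knockdown stratum, as it did for 18.7% of all tested genes. Averaged over the 79 genes and set against vector arrays 1 and 2, the level was -0.84 on KD1-3, against -2.01 on KD1-1 and -1.96 on KD2-2. It was -0.39 on KD2-3, against -1.03 on KD2-1 and -0.96 on KD1-2. On EV-3 it was 0.01, against -0.01 on EV-1 and 0.01 on EV-2. Both knockdown arrays numbered 3 were thus below all vector arrays and above the other knockdown arrays of their stratum, with no such step in vector cells.

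In bulk RNA a larger share of cycling cells and more of these transcripts per cell cannot be told apart. Single members show the same order of arrays. CCNB1, cyclin B1, which drives entry into mitosis with CDK1, read 9.93 on KD1-3, against 8.56 on KD1-1 and 8.55 on KD2-2. It read 10.4 on KD2-3, against 9.55 on KD2-1 and 9.48 on KD1-2, and 10.63 on EV-3, against 10.36 on EV-1 and 10.45 on EV-2. KD2-3 reached the range of the vector arrays, while KD1-3 did not. The effect was 1.13 in knockdown cells (SE 0.12, adjusted p = 0.00982), or 2.19-fold, and 0.23 in vector cells (SE 0.17, not called). PLK1, a kinase of centrosome maturation and mitotic entry, read 8.62 on KD1-3, against 6.78 on KD1-1 and 6.73 on KD2-2. It read 8.71 on KD2-3, against 7.84 on KD2-1 and 7.90 on KD1-2, while the vector arrays read 8.91, 8.94 and 8.74. Both knockdown arrays numbered 3 came close to the vector arrays, with an effect of 1.35 (SE 0.20, adjusted p = 0.0168). CCNA2, cyclin A2 of S phase and mitotic entry, read 10.4 on KD1-3, against 8.81 on KD1-1 and 8.82 on KD2-2. It read 10.46 on KD2-3, against 9.66 on KD2-1 and 9.59 on KD1-2, and in vector cells 11.12 on EV-3, against 11.32 on EV-1 and 11.25 on EV-2. Array 3 was the highest of each knockdown stratum and the lowest of the vector stratum. The effect was 1.21 in knockdown cells and -0.17 in vector cells (SE 0.22, not called), smaller than its error. Other members among the 12 largest called increases were TROAP (1.27), a spindle-associated protein, DLGAP5 (1.25), a spindle assembly factor, TOP2A (1.24), the topoisomerase that untangles chromosomes, the kinetochore subunit NDC80 (1.22), the cytokinesis kinesin KIF20A (1.21) and the hyaluronan receptor HMMR (1.18), which also binds the spindle. MKI67, the marker of cycling cells, had an effect of 0.36 and was not called (adjusted p = 0.0716). Array 3 was still the highest of each knockdown stratum for it. Its signal was dim, at 5.23 on KD1-1 and 5.17 on KD2-2, where differences come out too small.

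**Figure D2:**
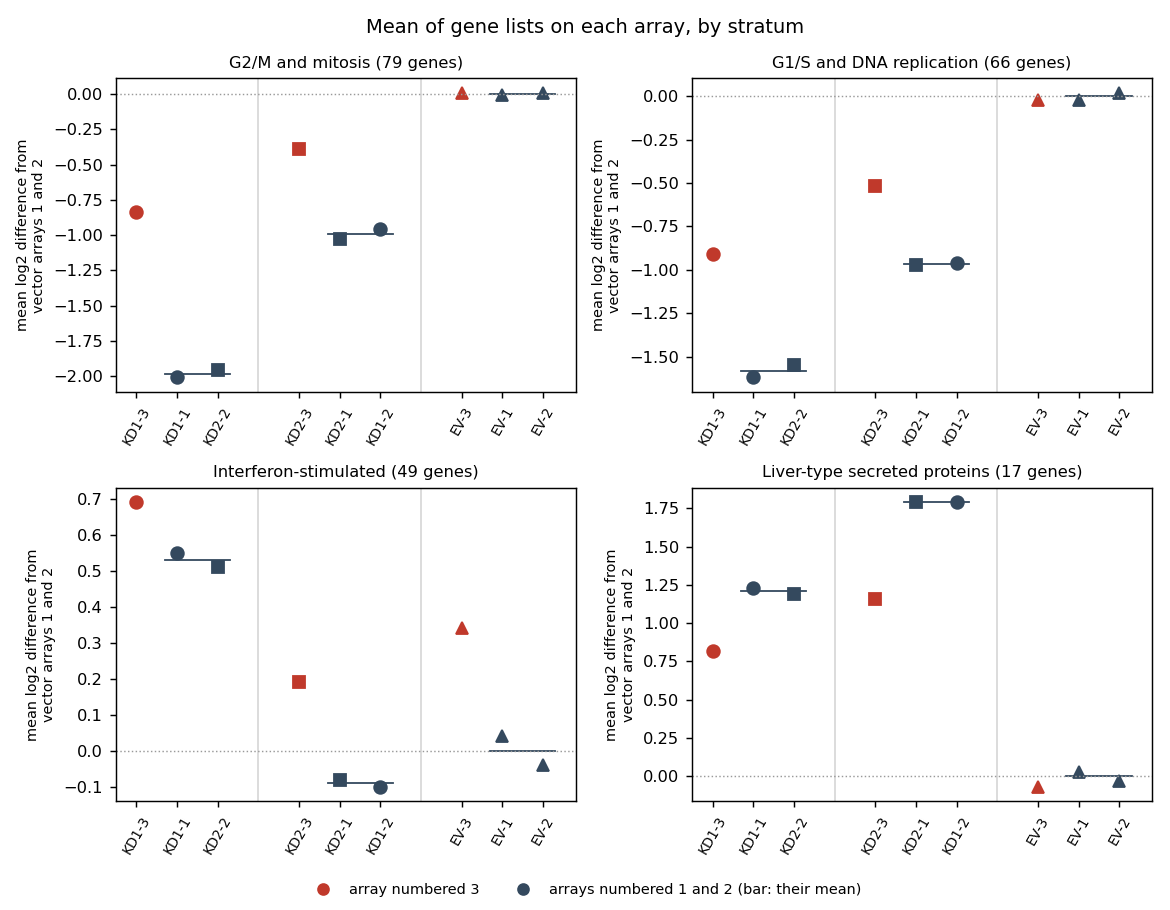
Mean log2 difference from the mean of vector arrays 1 and 2 over the tested members of 4 gene lists on each array (circles: shRNA 1, squares: shRNA 2, triangles: vector; red: array numbered 3, dark blue: arrays numbered 1 and 2, with their mean as a bar); scales differ between panels. The G2/M mean is -0.84 on KD1-3 and -0.39 on KD2-3, above their strata, and the interferon-stimulated mean is highest on the array numbered 3 in all 3 strata.

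Genes of the G1/S transition and DNA replication were higher too, by less. Of 66 tested members 34 were called higher and 0 lower, against 2.78% and 1.34% of all tested genes. The median effect was 0.55 in knockdown cells and 0.01 in vector cells. The median was 0.67 in stratum 1 and 0.42 in stratum 2. The list mean was -0.91 on KD1-3, against -1.62 on KD1-1 and -1.55 on KD2-2. It was -0.52 on KD2-3, against -0.97 on KD2-1 and -0.96 on KD1-2, and -0.02 on EV-3, against -0.02 on EV-1 and 0.02 on EV-2. The knockdown arrays numbered 3 again lay between their stratum and vector. CDC45, which activates the MCM helicase at replication origins, read 7.95 on KD1-3, against 6.57 on KD1-1 and 6.59 on KD2-2. It read 9.08 on KD2-3, against 8.12 on KD2-1 and 7.92 on KD1-2, while the vector arrays read 10.49 on EV-3, 10.49 on EV-1 and 10.31 on EV-2. Its effect was 1.21 (SE 0.11, adjusted p = 0.00982), or 2.32-fold, and both knockdown arrays numbered 3 stayed below every vector array. RRM2, the subunit of ribonucleotide reductase that limits deoxynucleotide supply, read 8.85 on KD1-3, against 6.91 on KD1-1 and 6.73 on KD2-2. It read 10.09 on KD2-3, against 9.30 on KD2-1 and 9.46 on KD1-2, and its effect was 1.37 (SE 0.25, adjusted p = 0.0278). Most of that came from stratum 1, at 2.03, against 0.71 in stratum 2. Further called members were the GINS subunit GINS2 (0.87), the primase subunit PRIM1 (0.80), the polymerase epsilon subunit POLE2 (0.75) and the helicase subunit MCM2 (0.71). The G1/S and G2/M lists together held 96 of the 347 genes called higher.

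Few of the listed cell cycle inhibitors and pocket protein genes were called. CDKN3, a phosphatase of cyclin-dependent kinases that itself peaks in mitosis, had an effect of 0.90 (adjusted p = 0.00990), and LIN9, a subunit of MuvB, one of 0.69 (adjusted p = 0.0321). These were the 2 called members, both higher, among 18 tested inhibitors and pocket protein genes, and the list's median was 0.08. Among 28 histone genes 2 were called higher, H2BC9 (0.71) and H4C3 (0.67), with a list median of 0.03. Over all tested genes 2.78% were called higher, and 2 calls a list are too few to set against that share. E2F1, the transcription factor released from RB1, read 6.57 on KD1-3, against 5.36 on KD1-1 and 6.31 on KD2-2. It read 7.43 on KD2-3, against 6.40 on KD2-1 and 6.26 on KD1-2, and 5.75 on EV-3, against 6.92 on EV-1 and 6.67 on EV-2. Array 3 was the highest of each knockdown stratum and the lowest of the vector stratum, with effects of 0.91 (SE 0.24, adjusted p = 0.0722) and -1.05 (SE 0.33), neither of them called. E2F8, of the same family and in the G1/S list, was called higher in knockdown cells (0.52, adjusted p = 0.0340). Its signal was dim, detected on 1 of the 4 knockdown arrays numbered 1 and 2.

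Promoters of the mitotic genes are shown because the block moved together. The letters TTTGAA, the core of the CHR element, were searched on both strands in the 250 bases before each RefSeq gene start (GRCh38.p14). They occurred in 32 of 66 G2/M promoters with an entry (48.5%), in 1 of 57 G1/S promoters (1.75%), in 8.66% of the promoters of tested genes and in 13.6% of all 27305 promoters. CCNB2 encodes cyclin B2 and had an effect of 1.13, with its promoter at chr15:59104896-59105145 (plus strand). KIF11, the kinesin that separates the spindle poles, had an effect of 1.09, with its promoter at chr10:92592880-92593129 (plus strand). Sequences run 5′ to 3′ along the gene's strand up to the base before the start, and capitals mark the match, which in KIF11 lies on the opposite strand. A match is only a run of letters and shows no binding.
CCNB2: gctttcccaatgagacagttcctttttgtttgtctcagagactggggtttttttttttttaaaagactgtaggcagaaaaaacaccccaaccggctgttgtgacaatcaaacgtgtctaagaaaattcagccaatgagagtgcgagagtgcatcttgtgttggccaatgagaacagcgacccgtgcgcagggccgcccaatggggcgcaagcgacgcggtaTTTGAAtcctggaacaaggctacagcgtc
KIF11: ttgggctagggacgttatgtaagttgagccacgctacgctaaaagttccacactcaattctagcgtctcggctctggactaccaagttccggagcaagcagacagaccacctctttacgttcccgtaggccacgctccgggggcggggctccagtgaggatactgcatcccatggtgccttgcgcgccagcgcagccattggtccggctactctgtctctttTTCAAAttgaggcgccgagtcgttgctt
Both matches lie within 30 bases of the start, the first letter 29 bases before it in CCNB2 and 28 in KIF11. The promoters of CCNB1, PTTG1 and CDC45 had 0 matches in the same window, and CCNB1 was called with the same effect as CCNB2. Only the letters TTTGAA were searched, so 0 matches do not show that a variant of the element is absent.

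The gene with the largest effect in knockdown cells belongs to neither list. DHRS2, a short-chain dehydrogenase, read 8.59 on KD1-3, against 7.20 on KD1-1 and 7.11 on KD2-2. It read 8.74 on KD2-3, against 6.48 on KD2-1 and 6.68 on KD1-2, and 9.58 on EV-3, against 9.34 on EV-1 and 9.20 on EV-2. Both knockdown arrays numbered 3 lay under the vector arrays and far above their strata. The effect was 1.80 (SE 0.16, adjusted p = 0.00982), or 3.48-fold, in knockdown cells and 0.31 (SE 0.23, not called) in vector cells. The set effects of single genes were related between strata that share no array: stratum 1 and stratum 2 correlated at 0.32 across genes, and 58.5% of genes had the same sign. The knockdown mean and vector cells correlated at 0.20, with 57.4% of the same sign. Genes are not independent replicates, so these values describe the arrays.

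**Figure D3:**
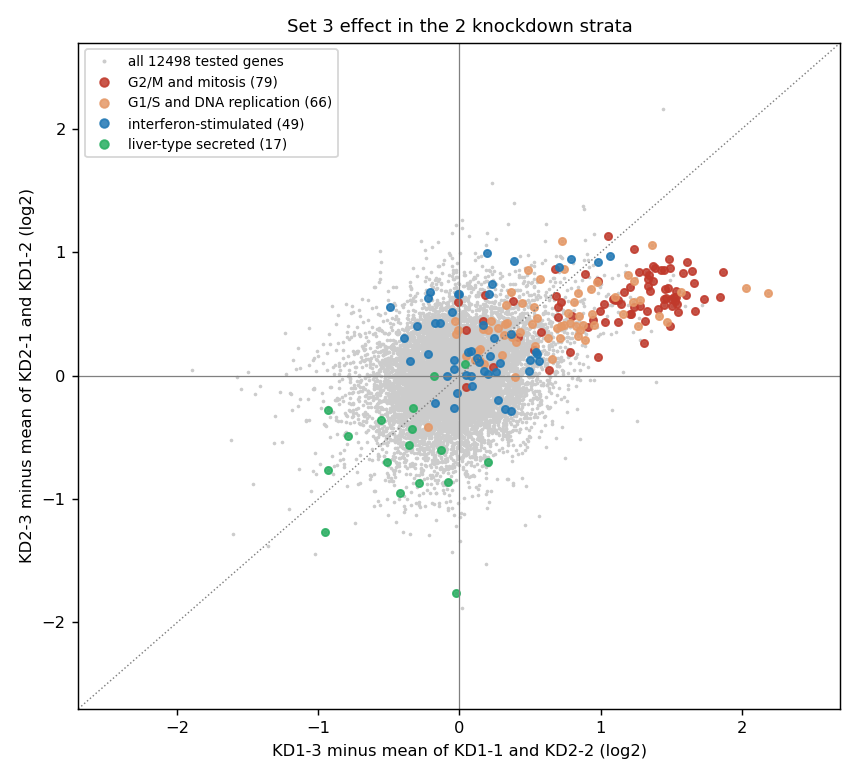
Set effect of each tested gene in stratum 2 (vertical, KD2-3 minus the mean of KD2-1 and KD1-2, log2) against that in stratum 1 (horizontal, KD1-3 minus the mean of KD1-1 and KD2-2, log2); grey points are all 12498 genes, coloured points are 4 lists, and the dotted line marks equal effects. G2/M genes (median 1.28 and 0.62 in strata 1 and 2) lie mostly in the upper right, below the line, and liver-type genes mostly at the lower left.

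Genes that the knockdown had raised were among those lower in set 3. TTR, transthyretin, a carrier of thyroid hormone made in liver and islet cells, read 10.22 on KD1-3, against 11.20 on KD1-1 and 11.13 on KD2-2. It read 10.04 on KD2-3, against 11.21 on KD2-1 and 11.41 on KD1-2, and 7.86 on EV-3, against 8.01 on EV-1 and 7.89 on EV-2. All knockdown arrays were above all vector arrays, and those numbered 3 were the lowest of the knockdown arrays. The effect was -1.11 in knockdown cells (SE 0.11, adjusted p = 0.00982) and -0.09 in vector cells (SE 0.16). TTR is 1 of 17 tested genes of liver-type secreted plasma proteins, with a median effect of -0.47 in knockdown cells and -0.09 in vector cells. Of these 5 were called lower (29.4%, against 1.34% of all tested genes) and 0 higher. The others were SERPINF2 (-0.85), an inhibitor of plasmin, APOH (-0.69), a phospholipid-binding plasma protein, SERPINA1 (-0.60), alpha-1 antitrypsin, and the coagulation factor F10 (-0.46). APOH was lowest on array 3 in all 3 strata, with a like effect in vector cells (-0.66, SE 0.22, not called). Its mean difference of knockdown from vector was 1.91 in set 3 and 1.94 in sets 1 and 2. The list mean was 0.82 on KD1-3, against 1.23 on KD1-1 and 1.19 on KD2-2. It was 1.16 on KD2-3, against 1.79 on both KD2-1 and KD1-2, and -0.07 on EV-3, against 0.03 on EV-1 and -0.03 on EV-2. The list was thus raised over vector on every knockdown array and by the least on the array numbered 3 of each stratum.

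Most called genes of the endocrine lineage were lower in set 3. Of 30 tested neuroendocrine and islet genes 5 were called lower and 1, the transcription factor gene FEV (0.64), higher, against 1.34% lower and 2.78% higher over all tested genes, with a list median of -0.01. SYT11, a synaptotagmin of vesicle traffic, had the largest decrease of all called genes. It read 6.42 on KD1-3, against 7.92 on KD1-1 and 8.13 on KD2-2, and 6.58 on KD2-3, against 8.02 on KD2-1 and 7.70 on KD1-2. It read 5.0 on EV-3, against 5.10 on EV-1 and 5.32 on EV-2. The knockdown arrays numbered 3 lay about midway between their strata and vector, with an effect of -1.45 (SE 0.14, adjusted p = 0.00982). The other called members were the hormone genes SST (somatostatin, -1.17) and GHRL (ghrelin, -0.58), SCG5 (-1.14), the chaperone of prohormone convertase PC2, and HTR3A (-0.50), a serotonin-gated channel subunit. CHGA, chromogranin A, the main marker of these tumours, had an effect of 0.02.

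SST, SCG5 and MMP10 were also lower on the vector array numbered 3. SST read 7.45 on KD1-3, against 8.91 on KD1-1 and 8.92 on KD2-2. It read 7.07 on KD2-3, against 8.07 on KD2-1 and 7.81 on KD1-2, and 5.54 on EV-3, against 7.06 on EV-1 and 6.76 on EV-2. Array 3 was the lowest of every stratum, and the effect in vector cells was -1.37 (SE 0.22, adjusted p = 0.520, not called). SCG5 read 9.31 on KD1-3, against 10.57 on KD1-1 and 10.47 on KD2-2, 8.85 on KD2-3, against 9.93 on both KD2-1 and KD1-2, and 7.84 on EV-3, against 8.66 on EV-1 and 8.43 on EV-2. The matrix metalloproteinase gene MMP10 had effects of -0.90 in knockdown cells (adjusted p = 0.0120) and -1.09 in vector cells (adjusted p = 0.520). Among all tested genes array 3 was below both others in all 3 strata for 9.06%. HMOX1, heme oxygenase, and DBP, a circadian transcription factor, were also named as lower in all 3 strata, at -0.70 and -0.77 in knockdown cells, but EV-3 did not detect HMOX1.

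**Figure D4:**
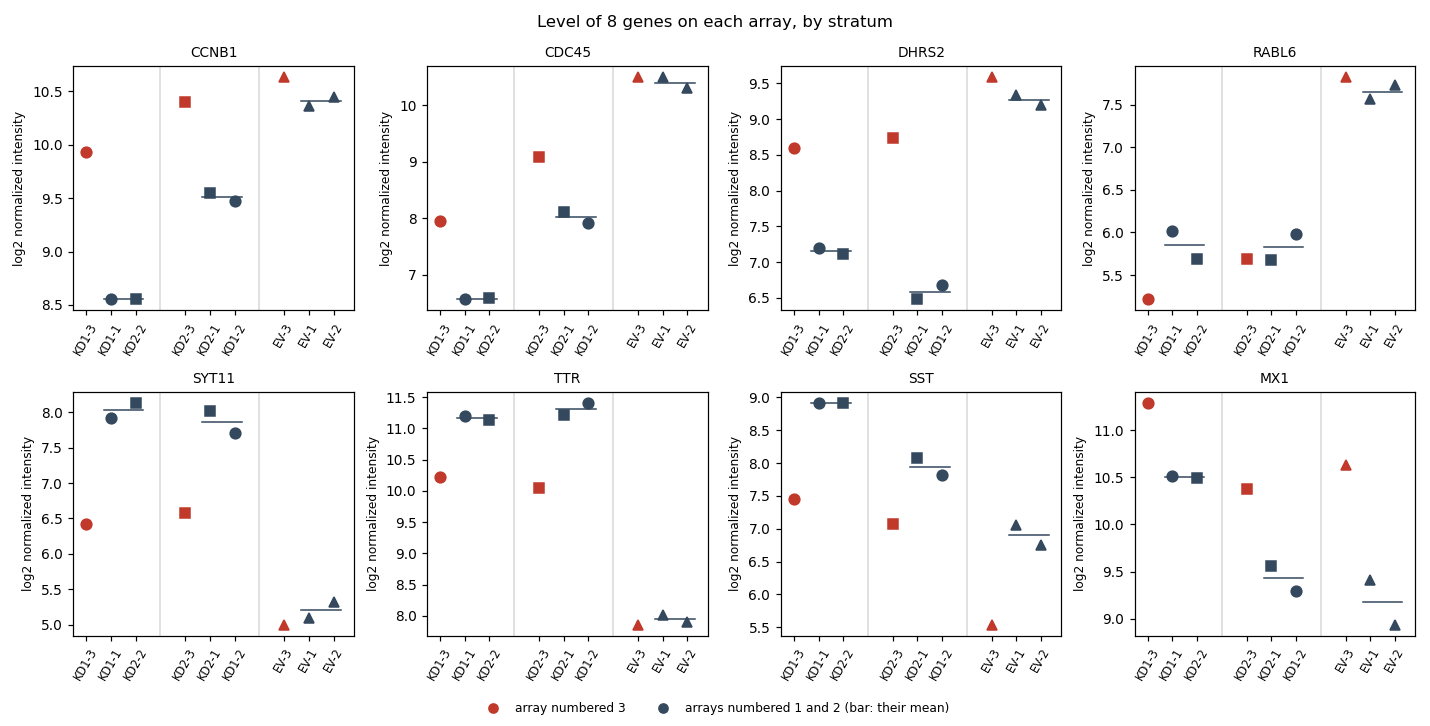
Normalized log2 intensity of 8 genes on each of the 9 arrays (circles: shRNA 1, squares: shRNA 2, triangles: vector; red: array numbered 3, dark blue: arrays numbered 1 and 2, with their mean as a bar); scales differ between panels. Array 3 is above both others in all 3 strata for DHRS2 and MX1, below both in all 3 for SYT11, TTR and SST, and for RABL6 it is the lowest of the 9 arrays in stratum 1 and the highest in vector cells.

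Other called decreases were CCDC83 (-1.24), AHNAK (-0.97), a very large scaffold protein, SMLR1 (-0.93), PLA2G1B (-0.90), the pancreatic phospholipase A2, JAML (-0.85), a junctional adhesion protein, and SAP18 (-0.85), a subunit of the SIN3 complex. PLA2G1B was not above background on either knockdown array numbered 3, so it was at least 1.58-fold lower there, taking the dimmest detected signal as the floor. JAML was above background on only 1 of these 2 arrays, so the size of its decrease is uncertain.

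Interferon-stimulated genes were the only listed group whose set effect had a larger median in vector cells than in knockdown cells and was positive in both by over 0.1. Of 49 tested members 4 were called higher in knockdown cells (8.16%, against 2.78% of all tested genes) and 0 lower. The list's median there was 0.14. In vector cells 0 were called, 14 had an unadjusted p under 0.05, all higher, and the median was 0.24, with 43 of 49 above 0. Of all 12498 tested genes 255 were higher in vector cells at an unadjusted p under 0.05, and 6111 were above 0. EV-3 was above EV-1 and EV-2 for 38 of 49, as for 32.9% of all tested genes. In all 3 strata array 3 was above both others for 21 of 49 and below both for 0, as for 8.38% and 9.06% of all tested genes. The list mean was 0.69 on KD1-3, against 0.55 on KD1-1 and 0.51 on KD2-2. It was 0.19 on KD2-3, against -0.08 on KD2-1 and -0.10 on KD1-2, and 0.34 on EV-3, against 0.04 on EV-1 and -0.04 on EV-2. The array numbered 3 was the highest of each stratum, by less than the distance between the knockdown strata.

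The 4 called members were OASL (1.02), OAS3 (0.95), MX1 (0.87) and IFI6 (0.79). MX1, a dynamin-like GTPase that blocks influenza virus, read 11.29 on KD1-3, against 10.51 on KD1-1 and 10.49 on KD2-2. It read 10.38 on KD2-3, against 9.56 on KD2-1 and 9.30 on KD1-2, and 10.63 on EV-3, against 9.41 on EV-1 and 8.94 on EV-2. EV-3 was above every array but KD1-3, and the effect was 0.87 in knockdown cells (SE 0.15, adjusted p = 0.0240) and 1.45 in vector cells (SE 0.21, adjusted p = 0.520, not called). IFI6, a mitochondrial and endoplasmic reticulum protein, read 12.23 on KD1-3, against 11.59 on KD1-1 and 11.47 on KD2-2. It read 11.65 on KD2-3, against 10.86 on KD2-1 and 10.69 on KD1-2, and 11.68 on EV-3, against 10.97 on EV-1 and 10.54 on EV-2. Array 3 led each stratum by a like amount, with effects of 0.79 in knockdown cells and 0.93 in vector cells. OAS3, an oligoadenylate synthetase that senses double-stranded RNA, read 8.53 on KD1-3, against 7.58 on KD1-1 and 7.53 on KD2-2. It read 7.74 on KD2-3, against 6.85 on KD2-1 and 6.80 on KD1-2, and 9.05 on EV-3, against 8.74 on EV-1 and 8.88 on EV-2. Here the step was small in vector cells, at 0.24 (SE 0.13), and OAS3 was highest in vector cells, unlike MX1. OASL, a relative without synthetase activity, was detected on both knockdown arrays numbered 3 and on 2 of the other 4.

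Members with a larger effect in vector cells were not called there. IFIT1, which binds viral RNA that lacks a methylated cap, read 10.23 on KD1-3, against 10.04 on KD1-1 and 10.02 on KD2-2. It read 8.51 on KD2-3, against 7.58 on KD2-1 and 7.45 on KD1-2, and 8.64 on EV-3, against 7.14 on EV-1 and 7.15 on EV-2. The effect was 1.49 in vector cells (SE 0.23, adjusted p = 0.520) and, in knockdown cells, 0.99 in stratum 2 and 0.19 in stratum 1, whose 3 arrays all read above those of the other strata. IRF9, a DNA-binding factor of the interferon response, had effects of 0.77 in vector cells (SE 0.14, adjusted p = 0.607) and 0.22 in knockdown cells (adjusted p = 0.238). Of 20 tested receptors, kinases and factors of interferon signalling 0 were called, with medians of 0.03 in knockdown cells and -0.02 in vector cells. Of 20 genes of MHC class I presentation 0 were called, with medians of 0.14 in knockdown cells and 0.05 in vector cells. That median was 0.25 without KD1-3 and 0.08 without KD2-3. The largest of these effects was that of HLA-B, at 0.69 in knockdown cells (adjusted p = 0.0682), with 1.11 in stratum 2 and 0.26 in stratum 1. Of 12 sensors of foreign nucleic acid and 22 NF-kB genes 0 were called. Over all tested genes 4.12% were called, and lists this short are too small for 0 calls to be set against that share.

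Promoters of interferon-stimulated genes are shown for the same reason as the mitotic ones. A core of the interferon response element, the letters GAAA followed by any 2 bases and GAAA again, was searched for in the same window on both strands. It occurred in 25 of 42 listed promoters with an entry (59.5%), in 2.46% of the promoters of tested genes and in 3.07% of all promoters. Among the 21 members with array 3 above both others in all 3 strata, 10 of 17 promoters held it (58.8%), close to the share of the list. The IFI6 promoter lies at chr1:27672193-27672442 (minus strand) and that of OAS3 at chr12:112938224-112938473 (plus strand), and capitals mark each match.
IFI6: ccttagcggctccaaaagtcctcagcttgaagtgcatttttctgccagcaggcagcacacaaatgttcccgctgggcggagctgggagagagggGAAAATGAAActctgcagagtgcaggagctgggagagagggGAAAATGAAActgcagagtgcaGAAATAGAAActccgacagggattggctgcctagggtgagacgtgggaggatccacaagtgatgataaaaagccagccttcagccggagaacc
OAS3: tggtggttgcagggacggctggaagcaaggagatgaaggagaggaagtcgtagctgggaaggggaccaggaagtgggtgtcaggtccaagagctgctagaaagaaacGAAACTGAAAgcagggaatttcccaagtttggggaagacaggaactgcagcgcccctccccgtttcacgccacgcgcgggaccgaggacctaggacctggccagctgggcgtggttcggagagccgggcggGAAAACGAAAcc
IFI6 held 3 matches and OAS3 held 2, IFIT1 held 2, and MX1 held 0 in its window although it was called.

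**Figure D5:**
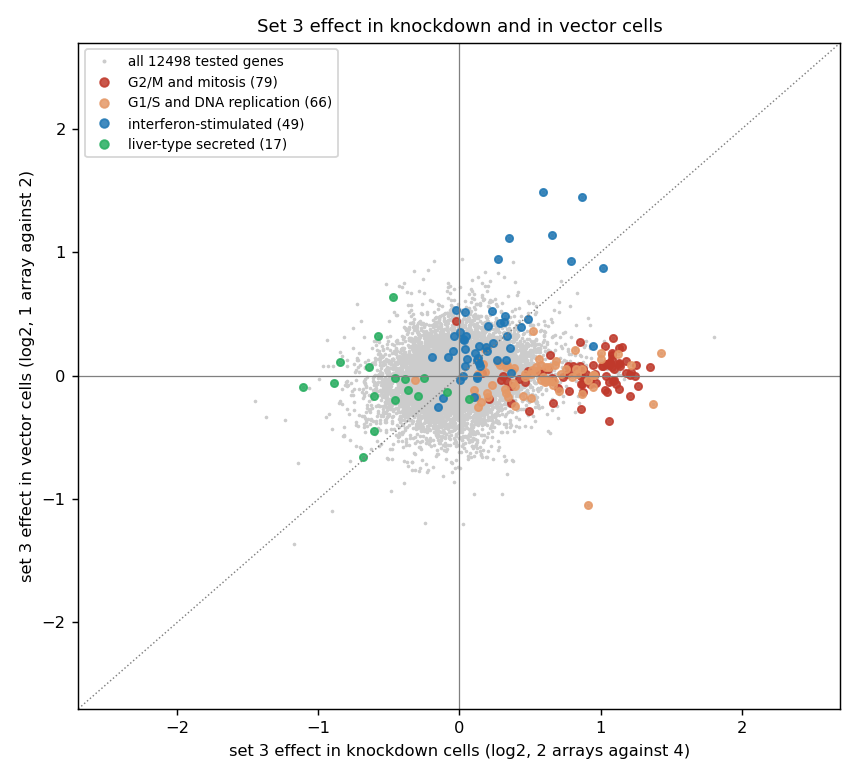
Set effect of each tested gene in vector cells (vertical, EV-3 minus the mean of EV-1 and EV-2, log2) against that in knockdown cells (horizontal, 2 arrays against 4, log2); grey points are all 12498 genes, coloured points are 4 lists, and the dotted line marks equal effects. G2/M and G1/S genes spread along the horizontal axis, with vector medians of 0.02 and 0.01, while interferon-stimulated genes such as MX1 (0.87 and 1.45) extend up and to the right.

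The remaining lists had few calls or none. None of the tested genes was called for p53 targets (25), the unfolded protein response (39), hypoxia and glycolysis (32), the respiratory chain (47), ribosome biogenesis (45), chaperones (23) or serum response (29). Over all tested genes 4.12% were called, and each of these lists is too short for 0 calls to be set against that share. Of 45 ribosomal protein genes 0 were called, and 41 had an effect above 0 in knockdown cells, against 5896 of all 12498 tested genes. The median was 0.12 in knockdown cells and 0.01 in vector cells. Array 3 was above both others in each knockdown stratum for 25 of the 45, as for 18.7% of all tested genes. The serum response list had a median of 0.34 in stratum 1 and -0.06 in stratum 2, which differ in sign. Among 30 genes of sterol and fatty acid synthesis 2 were called higher, against 2.78% of all tested genes. They were the desaturase FADS1 (0.68) and TMEM97 (0.73), a sterol-regulated membrane protein. The redox list of 24 genes had 1 call, HMOX1, and the list of 35 matrix and mesenchymal genes 1, MMP10, both lower. Of all tested genes 1.34% were called lower, and 1 call a list is too few to set against that share. In the matrix list 9 of 35 had an effect above 0 in knockdown cells, against 5896 of all 12498 tested genes. The median was -0.15 in knockdown cells (0 in stratum 1 and -0.26 in stratum 2) and 0.01 in vector cells. FOS, the immediate early transcription factor, read 10.52 on EV-3, against 11.84 on EV-1 and 11.60 on EV-2, an effect of -1.20 in vector cells that was not called. The 13 housekeeping genes had medians of -0.01 in knockdown cells and -0.02 in vector cells.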

How the data were processed

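RNA of 9 BON-1 samples was measured on HumanHT-12 v4 arrays in 1 colour. The main values were the authors' deposited signal intensities of 47231 probes, not normalized per the file headers, with the authors' deposited detection p-values. The submitters' processing notes name GenomeStudio without a version. The authors' deposited value table of intensity for 47219 probes looks background-subtracted and quantile normalized (column medians 7.93 to 7.96), with the method not given in the sources used here, and served as an alternative.

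Background was corrected with nec in limma 3.58.1 (R 4.3.3), which infers the negative control signal from detection p-values, adding 16 before quantile normalization and log2, so differences between dim genes come out too small. A probe was kept if its detection p was under 0.05 on 3 or more arrays (22011), of which 16744 had 1 gene name in the platform annotation. The probe with the highest mean stood for each of 3358 genes with several, which left 12498 genes. One model (lmFit, eBayes) on 9 arrays held a mean per stratum, a set 3 term in knockdown cells and one in vector cells, with 4 residual degrees of freedom. Calls are two-sided, at adjusted p under 0.05 after Benjamini-Hochberg. The labels do not state which set an array came from, nor whether the samples were separate cultures. A p-value thus covers only the spread among the samples at hand, which may be technical. The steps were tested on simulated data.

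Strata, members and the 26 gene lists were chosen with earlier results of these data known. Genes named were the 12 largest calls in each direction, the 10 in each direction called in knockdown cells with array 3 on 1 side in all 3 strata, the members of each list with the smallest p, and a few regulators; some genes that the rule covers are not reported here. HTR3A, FEV and the genes at the threshold were named after their values were seen. The lists hold 899 genes, with 738 tested, 110 under the filter and 51 without a named probe. Promoters came from RefSeq (GRCh38.p14).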

Additional observations from a re-analysis of the deposited data

Results flagged for a closer look

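Of the 60 named genes called in knockdown cells, 9 were detected on all 3 vector arrays and had array 3 on opposite sides in the cell kinds. Both knockdown arrays numbered 3 lay on one side of arrays 1 and 2 of their stratum, and EV-3 lay on the other. Among all tested genes EV-3 was above both others for 32.9% and below both for 34.6%. Some of the 60 were named for having array 3 on 1 side in all 3 strata, so they could not be counted. The count of 9 was not tested. The differences below are the set effect in knockdown cells minus that in vector cells. The difference was 1.38 for CCNA2, 1.60 for RRM2, 1.35 for TROAP, 0.81 for LIN9, 0.81 for PRIM1, 0.79 for ESPL1 (separase, which cuts cohesin) and 0.76 for FADS1, with knockdown cells higher and vector cells lower. It was -0.79 for GHRL and -1.01 for SMLR1, with knockdown cells lower and vector cells higher. The vector side of each comparison is 1 array against 2, and its effect was between -0.29 (ESPL1) and 0.21 (GHRL). No difference passed the limma test over all genes, where the smallest adjusted p was 0.369. Other named genes had the same order of arrays but either were not called in knockdown cells, as E2F1 (difference 1.96) and MKI67 (0.45), or were not detected on every vector array, as JAML, PLA2G1B and SERPINF2.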

How the results depend on the processing

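The count of 515 genes called in knockdown cells depended on the strata and on the spread. It was 0 with array weights (1515 genes at an unadjusted p under 0.05), 0 with the labelled hairpins as strata (510 at an unadjusted p under 0.05) and 0 without both knockdown arrays numbered 2 (1992), an alternative chosen after seeing the data. It was 1139 without background correction, 955 with normexp and an offset of 50, 1059 with a trend and robust eBayes, 292 with median centring and 171 with only the compared cells. Median centring gave 234 higher and 58 lower, against 347 and 168. Leaving out 1 array gave 118 to 515 calls: 171 without vector array 1 or 2, 515 without vector array 3, 132, 185 and 247 without shRNA 1 arrays 1, 2 and 3, and 174, 118 and 387 without shRNA 2 arrays 1, 2 and 3. In vector cells the count of 0 became 1 without background correction and 2 with a trend and robust eBayes. The count of 0 for the difference between both effects ranged from 0 to 40 over arrays left out: 1 without shRNA 1 array 3 and 40 without shRNA 2 array 3. The causes were not tested. All 60 named genes called in knockdown cells lost their call with array weights, with the labelled hairpins and on 7 arrays. They kept their direction under every alternative in which they were measured, which was largely fixed beforehand. Many were named because array 3 lay outside both others in each knockdown stratum, so leaving out 1 array could not turn their sign. The G2/M and G1/S medians were 0.97 and 0.55 on 7 arrays. With the labelled hairpins they stay at the main values of 0.95 and 0.55 by design, since the estimate does not depend on these strata. With the labelled hairpins 34 and 21 of these genes had an unadjusted p under 0.05 and were higher. The median of serum response genes was -0.06 without shRNA 1 array 3, against 0.13 on all arrays, and that of matrix genes was 0 without shRNA 2 array 3, against -0.15; without the other hairpin's array 3 they were 0.34 and -0.26. No paired analysis was possible because the replicate number defines the arrays compared.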
